A study of Mus musculus with 4 samples.

Results

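The proteasome is the large protease that degrades ubiquitin-tagged proteins. Its subunits and assembly factors were followed in intestinal stem cells from control mice and from mice with induced deletion of CREPT. All genes whose symbol consists of Psm, a letter from a to g and a number were taken, which gave 48 of the 18436 genes in the deposited expression table. They comprise 19 genes of the core particle (Psma and Psmb), 20 of the regulatory particle (Psmc and Psmd) and 9 others (Psme, Psmf and Psmg). Psmc3ip, which encodes a recombination cofactor and no proteasome protein, and the Psme2 retrogene Psme2b do not have symbols of this form and are not members.

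RNA was sequenced from Lgr5-GFP high cells, sorted from the crypts of 2 Lgr5-WT and 2 Lgr5-CREPTKO mice. All 4 were C57BL/6 mice that carried the Lgr5-EGFP-IRES-creERT2 allele, in which the Lgr5 gene drives GFP and a tamoxifen-inducible Cre recombinase, and in the Lgr5-CREPTKO mice both alleles of CREPT were also floxed. Both genotypes received tamoxifen at 1 mg per day for 5 days, and cells were sorted on day 7, so that the controls had the same Cre and the same drug. The Lgr5 allele is known to be silent in a part of the crypts, so that GFP marks only some of the stem cells. Mice of the study were 6 to 8 weeks old and of both sexes, and neither age nor sex is given for the single mice.

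Protein destruction by the proteasome takes place inside the core particle, the 20S, a barrel of outer rings of alpha subunits and inner rings of beta subunits, of which Psmb5, Psmb6 and Psmb7 encode the cutting ones. The regulatory particle, the 19S, sits on the end of the barrel, binds ubiquitin chains, removes them, and unfolds the substrate with a ring of ATPases before threading it in. In cells exposed to interferon the 3 cutting subunits are replaced by Psmb8, Psmb9 and Psmb10, which gives the immunoproteasome, and the cap protein PA28, encoded by Psme1 and Psme2, is made as well. When proteasome activity is short, the transcription factor NRF1 (Nfe2l1) raises the subunit genes together through antioxidant response elements in their promoters. Intestinal stem cells divide fast and renew the epithelium throughout life.

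In the Lgr5-CREPTKO cells 1 of the 46 members tested passed the test, a share close to the 2.67% of all genes tested that were called lower. It was Psmb4, a beta subunit of the core, at 60.9% of its Lgr5-WT level, and it kept this call in 10 of 16 alternative settings. The other 16 tested core genes did not pass the test and had log2 fold changes from -0.47 to -0.10 (52.3% of all genes tested were below 0, and 4 of the 17 core genes were above 0 once corrected for GC content and length), whereas the regulatory genes lay on both sides of 0 with a median of -0.10. Genes with short transcripts were lower in Lgr5-CREPTKO cells across the whole table, and core genes are short, so the core genes are set beside genes of like length below.

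Expression is given as FPKM, fragments scaled to the transcript length and to all mapped fragments of the library, which is per length and can be compared between genes. Log2 fold changes are Lgr5-CREPTKO minus Lgr5-WT on the log2(FPKM + 0.5) scale with their standard error (SE). They were tested with limma over the 12621 genes that averaged 0.5 FPKM or more, with Benjamini-Hochberg adjustment over all of them. The table holds no counts. From genes covered by single reads the depth was estimated at about 17900000 to 18900000 reads per library, and Psmb4 for example rested on about 3330 and 3660 reads in the Lgr5-WT mice and 2170 and 2020 reads in the Lgr5-CREPTKO mice. FPKM values summed to 495758 and 499327 in Lgr5-WT mice and to 468830 and 473662 in Lgr5-CREPTKO mice. Rprd1b, which encodes CREPT, was at 17.7 and 18.1 FPKM in Lgr5-WT mice and fell to 6.65 and 7.36 FPKM in Lgr5-CREPTKO mice, with a log2 fold change of -1.29 (SE 0.0946, limma adjusted p = 0.0280). With any 1 mouse left out 0 genes of the table passed the test, Rprd1b included. Lgr5 itself was at 47.7 and 37.7 FPKM against 52.0 and 60.1 FPKM, and Olfm4 at 5077 and 4932 FPKM against 5351 and 5181 FPKM. All 5 stem cell markers examined had higher values in both Lgr5-CREPTKO mice, which held for 25.6% of all genes tested. Their median log2 fold change was 0.32, and none was called (smallest limma adjusted p = 0.0601, Axin2). The part of this difference in the proteasome values was not tested. With 2 mice a genotype an exact permutation test cannot give a p below 0.333, so each call depends on the spread that limma estimates over many genes at once.

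Of the 48 members, 46 passed the filter on low values. Psma8, an alpha subunit of spermatogenic cells, was at 0.10 and 0.13 FPKM in Lgr5-WT mice and is listed at 0 in both Lgr5-CREPTKO mice, where the Lgr5-WT values stand for only about 2 or 3 reads. Psmb11, the beta subunit of thymic cortical epithelium, was at 0.33, 0.32, 0.30 and 0.38 FPKM. Both germ cell and thymus forms were thus near 0 in the stem cells of all mice.

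The promoters of 4 core genes are printed to show how the sequence upstream of the one member that passed the test compares with those of cutting subunits of the constitutive and of the inducible kind. Each is the 250 bases before and 50 bases after the start of transcription in RefSeq on GRCm38.p6, read 5′ to 3′ on the strand of the gene, at chr3:94886909-94887208 (minus strand) for Psmb4, chr14:54617946-54618245 (minus strand) for Psmb5, chr11:70525107-70525406 (plus strand) for Psmb6 and chr17:34197945-34198244 (plus strand) for Psmb8. Capitals mark an antioxidant response element (TGACNNNGC), an interferon-stimulated response element (GAAA, any 2 bases, GAAA) or an interferon-gamma activated site (TTCNNNGAA), searched on both strands.
Psmb4: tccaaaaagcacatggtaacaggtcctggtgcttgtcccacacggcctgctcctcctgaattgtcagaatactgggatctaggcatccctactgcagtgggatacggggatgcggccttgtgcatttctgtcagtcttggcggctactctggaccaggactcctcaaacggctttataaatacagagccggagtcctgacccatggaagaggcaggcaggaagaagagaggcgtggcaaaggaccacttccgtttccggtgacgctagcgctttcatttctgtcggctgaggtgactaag
Psmb5: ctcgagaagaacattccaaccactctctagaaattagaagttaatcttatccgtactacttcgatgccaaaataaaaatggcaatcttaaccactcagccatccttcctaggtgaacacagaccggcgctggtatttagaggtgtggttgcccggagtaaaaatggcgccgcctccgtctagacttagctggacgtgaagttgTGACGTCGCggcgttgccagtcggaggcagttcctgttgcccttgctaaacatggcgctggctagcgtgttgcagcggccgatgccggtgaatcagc
Psmb6: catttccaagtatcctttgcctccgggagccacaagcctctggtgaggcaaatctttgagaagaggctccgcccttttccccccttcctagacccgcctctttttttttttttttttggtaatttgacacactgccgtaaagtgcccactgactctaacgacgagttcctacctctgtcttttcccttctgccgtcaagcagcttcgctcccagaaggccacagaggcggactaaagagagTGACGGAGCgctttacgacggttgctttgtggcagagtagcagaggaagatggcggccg
Psmb8: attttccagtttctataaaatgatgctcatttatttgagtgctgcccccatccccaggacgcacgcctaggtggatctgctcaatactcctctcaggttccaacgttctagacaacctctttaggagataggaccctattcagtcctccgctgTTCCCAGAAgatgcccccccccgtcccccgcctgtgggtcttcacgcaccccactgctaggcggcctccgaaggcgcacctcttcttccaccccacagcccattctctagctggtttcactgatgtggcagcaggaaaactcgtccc

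The Psmb5 window holds TGACGTCGC, whose first base lies at -47 from the start, and the Psmb6 window holds TGACGGAGC at -9. The window of Psmb8 holds the interferon-gamma activated site TTCCCAGAA at -97. None of these letters stands in the Psmb4 window. Windows were found for 40 of the 48 members. The antioxidant response element was present in those of 6 of the 40 (15.0%), namely Psmb5, Psmb6, Psmc6, Psmd12, Psmd9 and Psme4, against 12.4% of 32851 windows of all genes. The interferon-stimulated response element was present for 5 of 40 (12.5%, against 3.44% of all windows), namely Psmb3, Psmd4, Psmd9, Psme1 and Psmg4. Psmb8, Psmb9, Psmb10 and Psme2 were not among them. The interferon-gamma activated site was present for 3 of 40 (7.5%, against 8.3%), and CCAAT for 14 of 40 (35.0%, against 37.4%). Member shares count genes over 43 windows, while the shares beside them count windows. A match describes letters in a window and is not a bound site.

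Psmb4 encodes the beta 7 subunit, the last beta subunit to join as a core particle is put together and the one whose tail reaches across to clasp the facing ring. It was at 156 and 169.9 FPKM in the Lgr5-WT mice and at 100.3 and 98.3 FPKM in the Lgr5-CREPTKO mice. Both knockout values lay far below both control values. The standard deviation between mice was 9.61 FPKM in Lgr5-WT and 1.46 FPKM in Lgr5-CREPTKO. Psmb4 fell by 0.71 on the log2 scale (SE 0.0740, limma adjusted p = 0.0319), and it was the only member among the 2.67% of all genes tested that passed at an adjusted p below 0.05 in the lower direction. No member was called higher, against 0.412% of all genes. No member passed the study's stricter threshold, which also asks for an absolute log2 fold change above 1 and was met by 1.01% of genes in the lower and 0.127% in the higher direction. Within each library Psmb4 stood at 1.27 and 1.34 times the mean of the other 13 constitutive core genes in Lgr5-WT mice and at 0.948 and 0.920 times that mean in Lgr5-CREPTKO mice. Relative to its partners in the same particle Psmb4 went from above their mean to just below it. As Psmb4 was picked for its call, this ratio restates its fall, and it was not tested. The log2 fold change of Psmb4 stayed between -0.77 and -0.56 over 16 alternative settings, with an adjusted p below 0.05 in 10 of them. Leaving out a mouse ended the call each time, with adjusted p of 0.221 and 0.305 without Lgr5-WT mouse 1 or 2 and of 0.217 and 0.161 without Lgr5-CREPTKO mouse 1 or 2. The gene lies on chromosome 3 at 94884093 to 94886961, and its neighbours Pogz and Selenbp1 had log2 fold changes of 0.12 (limma adjusted p = 0.495) and 0.18 (limma adjusted p = 0.351).

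**Figure D1:**
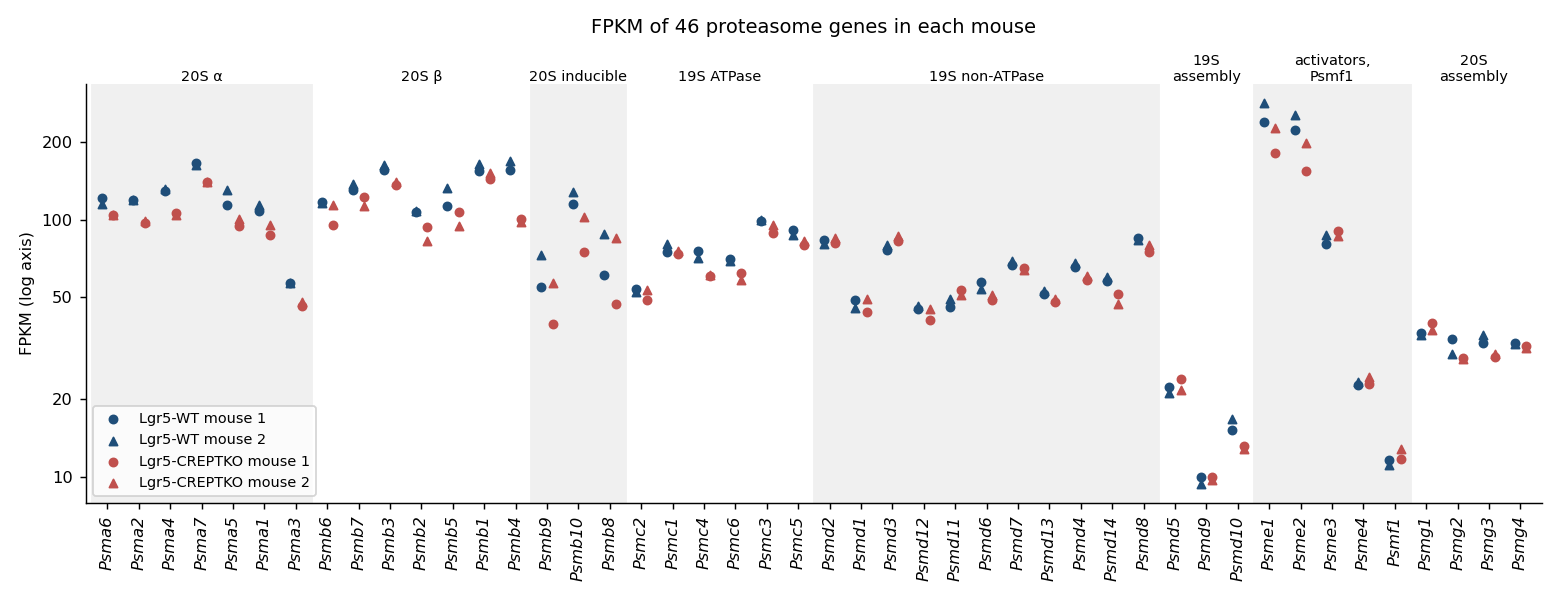
FPKM of the 46 proteasome genes above the filter, on a log axis, with 1 point per mouse (blue for Lgr5-WT, red for Lgr5-CREPTKO, circles for mouse 1 and triangles for mouse 2) and genes ordered by their place in the particle. Psmb4 is the one gene with a wide gap between genotypes (156 and 169.9 against 100.3 and 98.3 FPKM), while the mice of 1 genotype differ more than the genotypes do for Psmb8.

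The alpha ring forms the gate through which substrates enter the core. All 7 constitutive alpha genes had lower values in both Lgr5-CREPTKO mice than in either Lgr5-WT mouse, which held for 31.0% of all genes tested, with log2 fold changes between -0.32 and -0.19 and a median of -0.28 (Psma6 lay above 0 when corrected for GC content and length). None passed the adjusted threshold, and all 7 had an unadjusted limma p below 0.05, which 15.2% of all genes tested had in the lower direction. In the higher direction 9.27% of all genes and no member had one. Psma4, the alpha subunit with the smallest adjusted p, was at 129.9 and 131 FPKM in Lgr5-WT mice and 106 and 104 FPKM in Lgr5-CREPTKO mice, with a log2 fold change of -0.31 (SE 0.0637, limma adjusted p = 0.0721). For Psma5 the values were 114 and 131 FPKM against 94.8 and 101 FPKM, which gave the lowest alpha fold change, -0.32 (SE 0.0915, limma adjusted p = 0.122). The mice of a genotype lay closer together for Psma4 than for Psma5. Psma2 was at 119.5 and 119 FPKM against 97.1 and 99.1 FPKM, Psma1 at 108 and 114 FPKM against 86.9 and 95.5 FPKM, and Psma7 at 166 and 164 FPKM against 141 and 141 FPKM. Psma6 had the fold change nearest 0, -0.19, with 122 and 115 FPKM against 104 and 104 FPKM. Psma3 was the least abundant constitutive core gene, at 56.8 and 56.7 FPKM against 46.1 and 47.6 FPKM. The ring as a whole summed to 816 and 831 FPKM in Lgr5-WT mice and to 676 and 692 FPKM in Lgr5-CREPTKO mice, 83.0% of the control level.

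The beta ring carries the cutting sites on its inner face. Its 7 constitutive genes likewise had lower values in both Lgr5-CREPTKO mice, with a median log2 fold change of -0.21 (Psmb1, Psmb3 and Psmb6 lay above 0 when corrected for GC content and length), but besides Psmb4 only 2 of them had an unadjusted limma p below 0.05. Psmb2, a structural beta subunit, was at 107 and 108 FPKM in Lgr5-WT mice and 93.5 and 82.6 FPKM in Lgr5-CREPTKO mice (log2 fold change -0.29, SE 0.0842, limma adjusted p = 0.127). Psmb3, another structural subunit, was at 157 and 163 FPKM against 136 and 139.8 FPKM (-0.21, SE 0.0666, limma adjusted p = 0.145). The cutting subunits did not pass either. Psmb5, with chymotrypsin-like activity, was at 114 and 133 FPKM against 108 and 94.7 FPKM, and its log2 fold change of -0.28 had an SE of 0.112 (limma adjusted p = 0.209). Psmb6, with caspase-like activity, was at 118 and 116 FPKM against 95.2 and 114 FPKM, so that Lgr5-CREPTKO mouse 2 almost reached the controls. Psmb7, with trypsin-like activity, was at 131 and 138 FPKM against 123 and 113 FPKM. Psmb1, the most abundant core gene in mean over the 4 mice, had the fold change nearest 0 of the core, -0.10 (SE 0.0728, limma adjusted p = 0.452), at 155 and 164 FPKM against 145 and 153 FPKM. The spread among the 7 genes, from Psmb1 to Psmb4, was wider than that of the alpha ring.

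**Figure D2:**
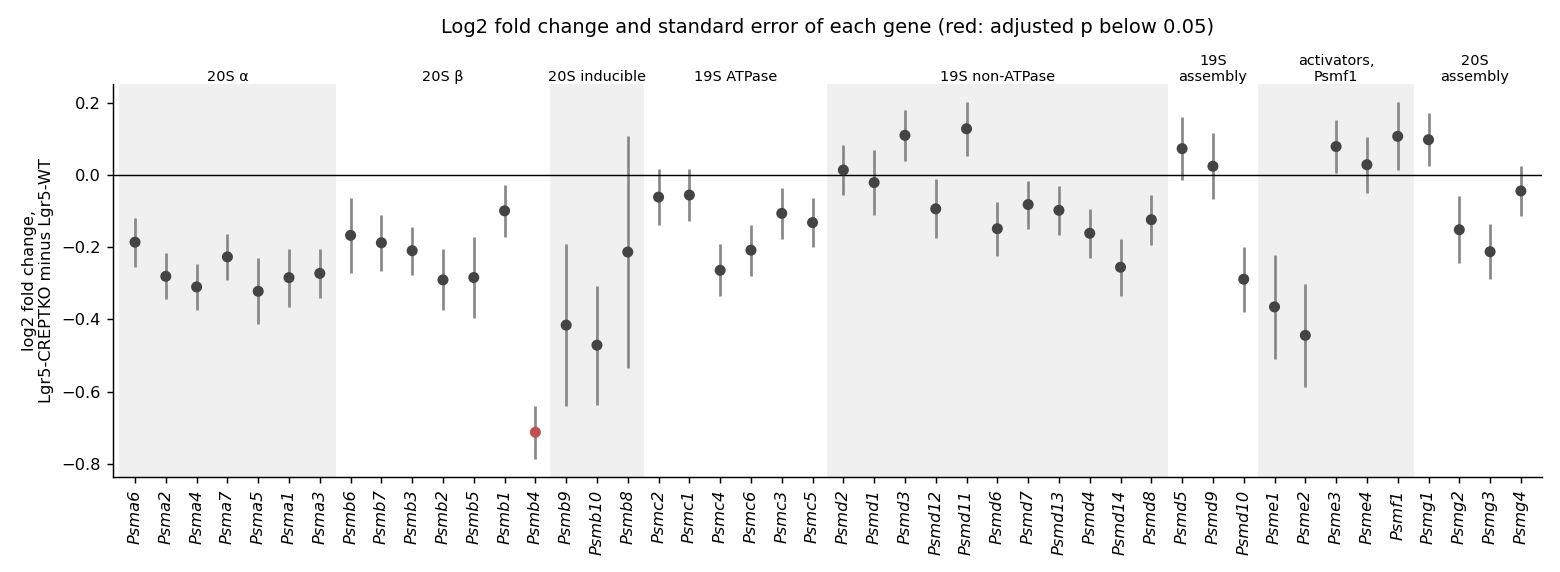
Log2 fold change, Lgr5-CREPTKO minus Lgr5-WT on the log2(FPKM + 0.5) scale, of the same 46 genes, where points are limma estimates from 2 mice per genotype and bars extend 1 standard error to either side. The 17 core genes lie below 0 (13 of them do when corrected for GC content and length), Psmb4 at -0.71 is the only one called and is drawn in red, and the bars are longest for the inducible subunits and for Psme1 and Psme2.

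Counted over all 17 core genes tested, the genotypes did not overlap and Lgr5-CREPTKO was lower for 15, against 31.0% of all genes, and for none was it higher, against 25.6% of all genes. Their log2 fold changes were below 0 in 17 of 17, against 52.3% of all genes, and their median was -0.28 against -0.01 over all genes. All 17 stayed below 0 when FPKM were rescaled to equal sums or by median ratios and after quantile or cyclic loess normalization, and 16 did when Lgr5-WT mouse 2 or Lgr5-CREPTKO mouse 1 was left out, Psmb8 being the exception. When fold changes were corrected for GC content and transcript length, a setting chosen after seeing the data, 13 of the 17 were below 0 and the median was -0.08. The 14 constitutive core genes summed to 1753 and 1823 FPKM in Lgr5-WT mice and 1476 and 1487 FPKM in Lgr5-CREPTKO mice.

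Transcript length moved with the fold change across the whole table. Among genes that averaged 10 FPKM or more, the median log2 fold change was -0.22 for 645 genes with transcripts of 500 to 1000 bases, -0.12 for 835 genes of 1000 to 1500 bases, -0.06 for 951 genes of 1500 to 2000 bases, and -0.01, 0.06 and 0.17 for genes of 2000 to 3000, 3000 to 5000 and 5000 to 10000 bases. Between the mice of 1 genotype the medians of these classes stayed between -0.06 and 0.04. The median transcript length was 1160 bases for core genes, 1610 bases for regulatory genes and 2530 bases for all genes tested. In the class that holds 13 of the core genes, with a mean of 50 to 200 FPKM and a transcript of 500 to 1500 bases, 87.0% of 409 genes were below 0, in 65.3% the genotypes did not overlap in the lower direction, and the median was -0.18, against -0.28 for the 13 core genes. The other 4, Psma2, Psma3, Psmb1 and Psmb8, have longer transcripts, and their median of -0.24 stood beside 0.01 for the 748 genes of that level with 1500 to 5000 bases. Of the 409 genes 6.60% were lower than Psmb4, and of the 748 genes 6.95% were lower than Psma2 and 7.35% lower than Psma3. For 10 of the 13 short core genes the share was between 27.1% for Psma5 and 52.3% for Psmb6, so they lay well inside their length class. The share was smaller for Psmb4, Psmb10 (13.9%) and Psmb9 (17.6%), and among the longer genes it was 11.4% for Psmb8 and 25.9% for Psmb1.

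**Figure D3:**
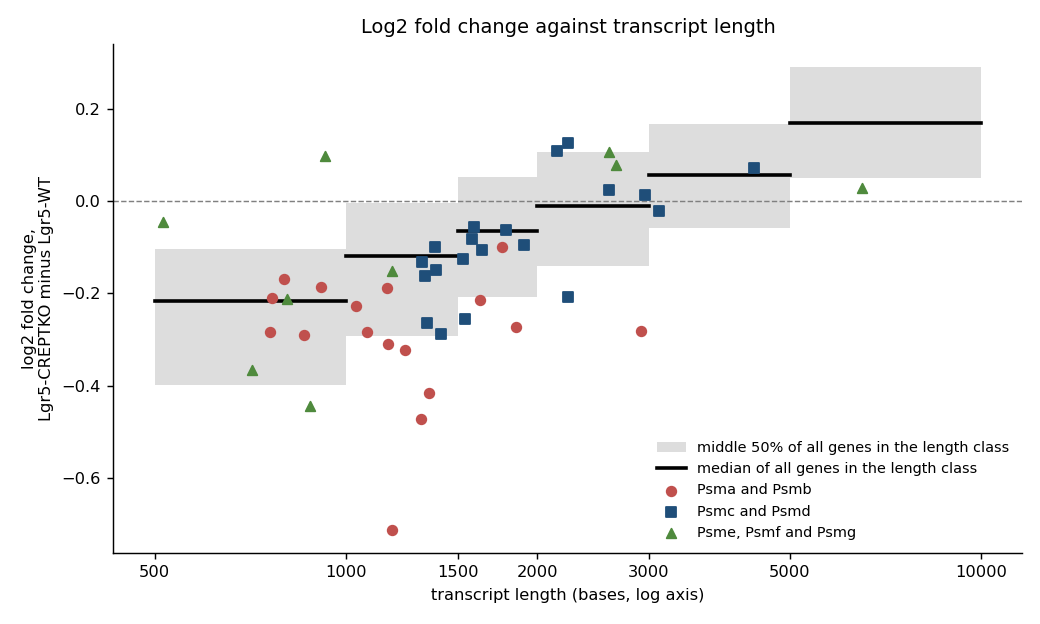
Log2 fold change of each tested member against its transcript length in bases (log axis), over the median (black line) and the middle 50% (grey) of all genes that averaged 10 FPKM or more, in 6 length classes. The median climbs from -0.22 in the shortest to 0.17 in the longest class, 30 of the 46 members lie inside the grey boxes, and Psmb4 at -0.71 lies far below its box.

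Markers of the secretory cells of the crypt also differed between the genotypes. The 9 enteroendocrine markers summed to 175 and 197 FPKM in Lgr5-WT mice and to 52.3 and 66.0 FPKM in Lgr5-CREPTKO mice, and 6 of the 9 were called lower. Goblet cell markers, 6 in all, summed to 1336 and 2154 FPKM against 742 and 771 FPKM, with 1 called lower, and the tuft cell markers summed to 16.8 and 37.5 FPKM against 13.7 and 4.63 FPKM, with none called and 1 at 0 in Lgr5-CREPTKO mouse 2. Paneth cell markers summed to 586 to 1848 FPKM and enterocyte markers to 279 to 443 FPKM over the 4 mice with none called, and stromal markers to at most 0.37 FPKM. In bulk RNA fewer cells of a type and less RNA per cell cannot be told apart. None of the enteroendocrine and goblet markers was at 0 in any mouse, and the part of these cells in the proteasome values was not tested.

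The regulatory particle showed smaller differences. Of its 20 genes 15 had a log2 fold change below 0 and 5 above, with a range from -0.29 to 0.13 and a median of -0.10, and none passed the test (smallest limma adjusted p = 0.114). The numbers below 0 were 12 when FPKM were rescaled to equal sums, 14 after median-ratio scaling, quantile or cyclic loess normalization, and 9 under the correction for length and GC content. Genotypes did not overlap for 12 genes in the lower and 2 in the higher direction, against 31.0% and 25.6% of all genes. The 17 subunits of the finished particle summed to 1148 and 1147 FPKM in Lgr5-WT mice and 1061 and 1092 FPKM in Lgr5-CREPTKO mice. The summed constitutive core genes over these 17 came to ratios of 1.53 and 1.59 in Lgr5-WT mice and 1.39 and 1.36 in Lgr5-CREPTKO mice. Both knockout ratios were below both control ratios, and whether the core and the regulatory particle differ in response was not tested. Core transcripts are shorter (median 1160 against 1610 bases), and the part of length in these ratios was not tested. Among genes with a mean of 50 to 200 FPKM, 5 regulatory genes of 500 to 1500 bases had a median of -0.15, beside -0.18 for all genes of that class. The 9 regulatory genes of 1500 to 5000 bases had a median of -0.08, beside 0.01.

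All 6 ATPases of the unfolding ring had fold changes below 0 (4 of them with equal sums and 3 when corrected for GC content and length), with a median of -0.12, and 4 had non-overlapping, lower values (31.0% of all genes did). Psmc4 was at 75.9 and 70.7 FPKM in Lgr5-WT mice and 60.7 and 61.2 FPKM in Lgr5-CREPTKO mice, with a log2 fold change of -0.26 (SE 0.0717, limma adjusted p = 0.114). Psmc6 was at 70.3 and 69.1 FPKM against 62.2 and 58.4 FPKM (-0.21, SE 0.0705, limma adjusted p = 0.161). The other ATPases were closer, with Psmc3 at 98.7 and 99.7 against 89.2 and 95.1 FPKM, Psmc5 at 91.1 and 87.1 against 79.9 and 82.5 FPKM, Psmc1 at 74.98 and 80.2 against 73.8 and 75.3 FPKM, and Psmc2 at 54.0 and 52.3 against 48.7 and 53.1 FPKM. For Psmc1 and Psmc2 the genotypes overlapped.

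Among the 11 subunits without ATPase activity, which form the base and the lid, the 2 with the lowest fold changes bear directly on ubiquitin. Psmd14, the lid enzyme that cuts off the ubiquitin chain, was at 57.8 and 60.1 FPKM in Lgr5-WT mice and 51.6 and 47.1 FPKM in Lgr5-CREPTKO mice (-0.26, SE 0.0790, limma adjusted p = 0.140). Psmd4, a receptor for ubiquitin chains, was at 65.7 and 67.7 FPKM against 58.5 and 60.6 FPKM (-0.16, SE 0.0675, limma adjusted p = 0.226). The scaffold subunits Psmd3 and Psmd11 had higher values in both Lgr5-CREPTKO mice, at 76.2 and 80.0 against 82.4 and 86.2 FPKM and at 45.9 and 49.3 against 53.1 and 51.0 FPKM, with log2 fold changes of 0.11 (limma adjusted p = 0.401) and 0.13 (limma adjusted p = 0.365). The largest scaffold subunits were nearly level, with Psmd2 at 83.7 and 80.3 against 80.9 and 84.7 FPKM and Psmd1 at 48.6 and 45.4 against 43.6 and 49.1 FPKM. The remaining 5 were the lid subunits Psmd6, Psmd7, Psmd8, Psmd12 and Psmd13, at group means between 42.7 and 84.2 FPKM, and none of them passed.

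The chaperones that build the ATPase ring leave it before it is finished, and their genes were far less abundant than the subunits, at means of 9.75 to 22.4 FPKM. Psmd10 (gankyrin) was at 15.3 and 16.7 FPKM in Lgr5-WT mice and 13.2 and 12.8 FPKM in Lgr5-CREPTKO mice, the lowest fold change of the regulatory group (-0.29, SE 0.0899, limma adjusted p = 0.142). Psmd5 was at 22.4 and 21.2 FPKM against 24.1 and 21.8 FPKM, and Psmd9 at 9.96 and 9.38 FPKM against 9.94 and 9.73 FPKM, and for both the genotypes overlapped. The 20S chaperones stood higher, at means of 30.5 to 37.2 FPKM. Psmg3 was at 33.2 and 35.6 FPKM against 29.2 and 30.0 FPKM (-0.21, SE 0.0768, limma adjusted p = 0.180) and Psmg1 at 36.1 and 35.7 FPKM against 39.7 and 37.3 FPKM (0.10, SE 0.0730, limma adjusted p = 0.464). Psmg2, the partner of Psmg1 in 1 dimer, was at 34.4 and 29.98 FPKM against 29.1 and 28.6 FPKM, and Psmg4, the partner of Psmg3, at 33.2 and 32.9 FPKM against 32.2 and 31.8 FPKM. No chaperone of either particle passed the test.

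The inducible subunits and PA28 varied from mouse to mouse. Psmb8 was at 61.1 and 88.2 FPKM in Lgr5-WT mice and 47.1 and 85.0 FPKM in Lgr5-CREPTKO mice, and Psmb9 at 54.6 and 73.0 FPKM against 39.1 and 56.9 FPKM. For both the order from low to high was Lgr5-CREPTKO mouse 1, Lgr5-WT mouse 1, Lgr5-CREPTKO mouse 2 and Lgr5-WT mouse 2, so that the genotypes overlapped. Their log2 fold changes were -0.21 (SE 0.321, limma adjusted p = 0.732) and -0.42 (SE 0.224, limma adjusted p = 0.323), and that of Psmb8 turned to 0.05 without Lgr5-WT mouse 2 and to 0.21 without Lgr5-CREPTKO mouse 1. Psmb10 was at 115 and 128 FPKM against 74.6 and 103 FPKM, without overlap (-0.47, SE 0.165, limma adjusted p = 0.172). Without Lgr5-CREPTKO mouse 1 the log2 fold changes of Psmb9 and Psmb10 were -0.15 and -0.24, and without Lgr5-CREPTKO mouse 2 they were -0.68 and -0.70. Without Lgr5-WT mouse 1 or 2 that of Psmb9 was -0.62 or -0.21. Set over its constitutive counterpart in the same library, Psmb8 over Psmb5 gave ratios of 0.538 and 0.663 in Lgr5-WT mice and 0.438 and 0.898 in Lgr5-CREPTKO mice (two-sided exact permutation p = 1.0). Psmb9 over Psmb6 gave 0.464 and 0.628 against 0.411 and 0.499, and Psmb10 over Psmb7 gave 0.881 and 0.930 against 0.607 and 0.908 (both with a two-sided exact permutation p = 0.667). Lgr5-CREPTKO mouse 1 had the lowest of the 4 ratios for each pair, and mouse 2 had the highest for Psmb8 over Psmb5.

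Psme1 and Psme2, which encode the alpha and beta chains of PA28, were the most abundant members. Psme1 was at 240.4 and 285 FPKM in Lgr5-WT mice and 182 and 227 FPKM in Lgr5-CREPTKO mice (-0.37, SE 0.144, limma adjusted p = 0.208), and Psme2 at 223 and 256 FPKM against 155 and 199 FPKM (-0.44, SE 0.143, limma adjusted p = 0.150). Without Lgr5-CREPTKO mouse 1 these values were -0.20 and -0.27, without Lgr5-CREPTKO mouse 2 they were -0.53 and -0.62, and without Lgr5-WT mouse 2 that of Psme1 was -0.24. Both had the order of Psmb10, with Lgr5-CREPTKO mouse 1 lowest and Lgr5-WT mouse 2 highest. The other caps did not share it. Psme3, the nuclear PA28 gamma, was at 80.4 and 86.9 FPKM against 90.04 and 86.6 FPKM, Psme4 (PA200) at 22.8 and 23.4 FPKM against 22.9 and 24.3 FPKM, and the inhibitor Psmf1 (PI31) at 11.6 and 11.1 FPKM against 11.7 and 12.8 FPKM. The log2 fold changes of Psme3 and Psmf1 were 0.08 (SE 0.0745) and 0.11 (SE 0.0941), and none of the 3 genes passed the test.

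**Figure D4:**
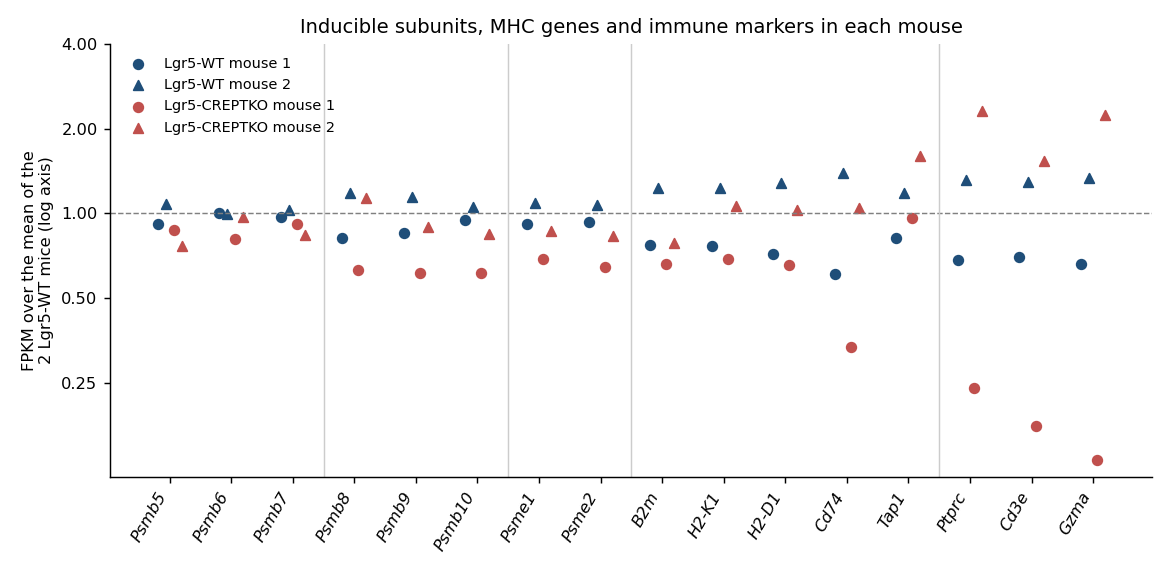
FPKM in each mouse over the mean of the 2 Lgr5-WT mice, on a log axis, for the cutting subunits Psmb5, Psmb6 and Psmb7, the inducible subunits, PA28, genes of antigen presentation and markers of immune cells (blue for Lgr5-WT, red for Lgr5-CREPTKO, circles for mouse 1 and triangles for mouse 2). Psmb8 and Psmb9 rank the 4 mice as B2m, H2-K1, H2-D1 and Cd74 do, with Lgr5-CREPTKO mouse 1 lowest, while Ptprc, Cd3e and Gzma are highest in Lgr5-CREPTKO mouse 2.

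The class I genes B2m, H2-K1 and H2-D1, whose products present the peptides that the immunoproteasome makes, ordered the mice as Psmb8 and Psmb9 did. B2m was at 384 and 611 FPKM in Lgr5-WT mice and 329 and 390.3 FPKM in Lgr5-CREPTKO mice, H2-K1 at 233 and 373 FPKM against 209 and 323 FPKM, and H2-D1 at 155 and 276 FPKM against 141 and 221 FPKM. Of the 14 class I and interferon genes tested 11 were below 0 and 3 above (7 and 7 with equal sums), with a median of -0.10, and none had an unadjusted limma p below 0.05. This split rested on single mice, at 5 below and 9 above without Lgr5-WT mouse 2 (median 0.09) or without Lgr5-CREPTKO mouse 1 (0.13), 13 and 1 without Lgr5-WT mouse 1 (-0.37), and 14 and 0 without Lgr5-CREPTKO mouse 2 (-0.40). Those with the largest fold changes were Irf7 (5.67 and 6.17 against 2.17 and 4.92 FPKM) and Gbp2 (0.86 and 1.28 against 0.11 and 1.04 FPKM), both induced by interferon, and B2m. Markers of immune cells differed between mice of the same genotype. The 13 markers, none at 0 in any mouse, summed to 531 and 1202 FPKM in Lgr5-WT mice and 288 and 946 FPKM in Lgr5-CREPTKO mice, mostly Cd74, the class II invariant chain that epithelium can also make (509 and 1165 against 282 and 876 FPKM). The pan-leukocyte gene Ptprc was at 0.40 and 0.77 FPKM against 0.14 and 1.35 FPKM, the T cell receptor chain Cd3e at 0.92 and 1.70 against 0.23 and 2.02 FPKM, and the granule protease Gzma at 10.3 and 20.98 against 2.09 and 35.1 FPKM. Lgr5-CREPTKO mouse 1 was thus lowest in the inducible subunits, in these 3 class I genes and in the summed immune markers, and the part of immune cells in these values was not tested.

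Other proteins that ride on or build the proteasome were counted from a list of 13, of which 12 were in the table and 11 were tested. Of these 8 were below 0 and 3 above (6 and 5 with equal sums), with a median of -0.09, which turned to 4 below, 7 above and a median of 0.02 when corrected for GC content and length, and none passed (smallest limma adjusted p = 0.121). Shfm1, also called Sem1, the small lid subunit whose symbol falls outside the rule, was at 174 and 186 FPKM in Lgr5-WT mice and 154 and 149 FPKM in Lgr5-CREPTKO mice. AI314180, also called Ecpas, an adaptor that tethers proteasomes, had higher values in both Lgr5-CREPTKO mice, at 34.9 and 32.5 against 40.3 and 40.9 FPKM. Pomp, the chaperone of the beta rings, was at 125 and 135 FPKM against 109 and 118 FPKM, with both knockout values below both controls, and Zfand5 at 15.7 and 13.5 against 11.1 and 13.5 FPKM. Of the 11 tested, 5 had non-overlapping, lower values and 3 higher ones, against 31.0% and 25.6% of all genes tested.

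The regulators of proteasome genes did not move as 1 group. Of the 10 listed 4 were below 0 and 6 above, with a median of 0.10 (2 below and 8 above with equal sums), and none passed (smallest limma adjusted p = 0.0999). Nfe2l1 itself was at 24.6 and 27.4 FPKM in Lgr5-WT mice and 26.1 and 25.5 FPKM in Lgr5-CREPTKO mice, and its relative Nfe2l2 at 83.8 and 81.6 against 82.5 and 81.2 FPKM. Ddi2, the protease that frees NRF1 from the membrane, had the largest value of the list (26.5 and 20.6 against 36.2 and 32.8 FPKM, log2 fold change 0.55), followed by Syvn1, a ubiquitin ligase that turns NRF1 over (27 and 30.9 against 22.1 and 22.4 FPKM, -0.37), and by the small Maf partner Mafg (8.32 and 10.1 against 11.8 and 10.7 FPKM, 0.28). Of the 10, 1 (Syvn1) had non-overlapping, lower values and 2 (Ddi2 and Mafg) higher ones, against 31.0% and 25.6% of all genes tested. For Nfe2l1 the genotypes overlapped.

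Ubiquitin and its delivery were represented by 20 genes, of which 10 were below and 10 above 0 (7 and 13 with equal sums) with a median of 0.01. None passed the adjusted threshold (smallest limma adjusted p = 0.121), and 5 had an unadjusted limma p below 0.05 in the lower direction, against 15.2% of all genes. Among them were Ufd1l, a cofactor of the segregase p97 (24.6 and 22.7 against 20.3 and 18.6 FPKM), and Rps27a, which encodes ubiquitin fused to a ribosomal protein (1079 and 996 against 896 and 824 FPKM). The polyubiquitin gene Ubb was at 1135 and 1168 FPKM against 984 and 1011 FPKM.

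Summed over all 48 members, proteasome transcripts made up 0.786% and 0.822% of all FPKM in the Lgr5-WT mice and 0.712% and 0.749% in the Lgr5-CREPTKO mice. The sums were 3895 and 4104 FPKM against 3338 and 3545 FPKM, so that the Lgr5-CREPTKO mean was 86.0% of the Lgr5-WT mean, a log2 ratio of -0.22, or -0.14 when FPKM were rescaled to equal library sums. By group the Lgr5-CREPTKO mean was 82.2% of Lgr5-WT for the core, 94.0% for the regulatory and 83.9% for the other genes, the last being mostly Psme1 and Psme2. Over the 46 tested members 37 fold changes were below 0 and 9 above, against 52.3% of all genes below 0. The split was 33 to 13 with equal sums and 26 to 20 when corrected for GC content and length. All 46 exceeded the low-value filter in each genotype.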

How the data were processed

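The libraries were made from Lgr5-GFP high cells sorted from 2 Lgr5-WT and 2 Lgr5-CREPTKO mice. The authors deposited 1 table of FPKM values with a column per mouse, after mapping reads to reference transcripts with Bowtie2 and quantifying genes with RSEM on GRCm38.p6 (mm10). The submitters' processing notes also name HISAT, and versions are not given in the sources used here. The study called genes with a count model, whereas the table holds no counts, so limma 3.58.1 in R 4.3.3 (lmFit, eBayes with an intensity trend) was run on log2(FPKM + 0.5) for the 12621 of 18436 genes that averaged 0.5 FPKM or more. Genes were called at a Benjamini-Hochberg adjusted p below 0.05 over all genes tested. The method was tested on simulated data without a trend of fold change with transcript length. Changes as small as that of Psmb4 were not simulated. Medians, sums and the counts of genes whose genotypes do not overlap carry no test.

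Columns were matched to mice by the sample titles. Nothing in the sources links mice of the same number. The mice are taken as separate animals, as the study states 2 mice per genotype. Members and lists were chosen with earlier results of these data known. Named with full values were called members, the 2 members of each role with the largest fold change in each direction, the inducible subunits with their counterparts, the 5 most and 5 least abundant members, and up to 3 genes per list with the largest fold change. Pomp, Nfe2l1, Nfe2l2, Ubb, H2-K1, H2-D1, Cd74, Ptprc, Cd3e, Gzma and the remaining members were added after their values were seen. Transcript lengths are medians over GENCODE M21 transcripts on the same assembly, and promoters are from RefSeq. Depth was estimated from the steps of 1 read among small RNA genes, so that read numbers are approximate. Summaries were made in Python 3.11.15 (pandas 2.3.3, scipy 1.17.1). In all 14 alternatives were planned, and 2, a correction for length and GC content and cyclic loess, were chosen after seeing the data. Some genes of the lists are not reported here. Protein sequences were not used here, and GO enrichment was not analysed here.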

Additional observations from a re-analysis of the deposited data

How the results depend on the processing

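Psmb4 was called in the reported fit and under 10 of 16 alternatives. The number of members called lower went from 1 to 0 without a filter on low values (Psmb4 adjusted p = 0.116), without the intensity trend (0.0688) and with each mouse left out in turn (0 to 0). Over the whole table these settings called 0, 4 and 0 genes lower and 0 higher, against 337 lower and 52 higher as reported, 447 and 116 with a minimum of 5 FPKM, 525 and 126 with a robust prior, and 241 and 85 when FPKM were rescaled to equal sums. The median log2 fold change of core genes (-0.28) was -0.203 with equal sums, -0.221 with quantile normalization, -0.218 with cyclic loess and -0.0812 with the length and GC correction, and it ranged from -0.295 to -0.227 with a mouse left out. That of regulatory genes (-0.10) was -0.0187, -0.0434, -0.0572 and 0.00226 in the same order and ranged from -0.139 to -0.0684. That of the other genes (-0.04) was 0.0324 with equal sums, -0.0221 with median ratios, -0.0115 with quantile normalization and 0.0204 with the length and GC correction. With equal sums the genes without overlap numbered 21 lower and 10 higher in place of 32 and 4 of 46, against 23.3% and 36.1% of all genes with equal sums and 31.0% and 25.6% as reported, and the summed log2 ratio was -0.139 in place of -0.217. Of 33 members followed over 16 alternatives, 514 of 528 values kept direction and call, and 6 lost the call of Psmb4. Over all 46 tested members 29 of 736 values, from 17 members, changed sign, most often for Psmd1 (6 of 16) and Psmc2 (3 of 16), whose fold changes were near 0. Of the members followed, the 8 that changed sign were Psmb8 without Lgr5-WT mouse 2 and without Lgr5-CREPTKO mouse 1 (range with a mouse left out -0.6361 to 0.2085), Psmd9 without Lgr5-WT mouse 2 (range -0.0174 to 0.0649), and, with the length and GC correction, Psma6 (0.0482), Psmb6 (0.0377), Psmb3 (0.0077), Psmb1 (0.0328) and Psmg2 (0.0204). The cause of these changes was not tested. Mice of the same number are different animals, and the correlation of their deviations was -0.0266 over 12621 genes. With the mouse number as a replicate block 168 genes were called lower and 15 higher, Psmb4 was again the only member (adjusted p = 0.0425), and no other member's call changed. Depth limits Psma8, which rests on about 3 reads or fewer per library.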

Other observations

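Several members sit beside genes of related function. Psmb9, Tap1, Psmb8 and Tap2, which make and carry class I peptides, follow each other on mouse chromosome 17 among class II genes. Tap1 was at 16.3 and 23.4 FPKM in Lgr5-WT mice and 19.04 and 31.6 FPKM in Lgr5-CREPTKO mice, so that it was highest in a knockout mouse, whereas Psmb9 was highest in a control mouse. Tap2 was at 10.96 and 14.3 against 11.01 and 13.8 FPKM. The class II genes next to them varied between mice of 1 genotype, with H2-Ab1 at 127 and 314 FPKM against 67.1 and 218 FPKM.

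Psme1 and Psme2 lie near each other on chromosome 14, at 55578123 to 55581529 and 55587441 to 55591113. Their neighbour Pck2, the mitochondrial enzyme that makes phosphoenolpyruvate, was at 37.5 and 42.9 FPKM in Lgr5-WT mice and fell to 24.9 and 26.5 FPKM in Lgr5-CREPTKO mice (log2 fold change -0.63, limma adjusted p = 0.0472). Further along, Rnf31 and Irf9 had log2 fold changes of 0.26 (limma adjusted p = 0.277) and 0.01 (limma adjusted p = 0.979). These neighbours were chosen after their values were seen.

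Psmc3ip, which shares its prefix with the ATPase Psmc3 and encodes a cofactor of meiotic recombination, was at 5.61 and 5.13 FPKM in Lgr5-WT mice and fell to 1.68 and 2.11 FPKM in Lgr5-CREPTKO mice (log2 fold change -1.30, limma adjusted p = 0.0348). Psmc3 itself was at 98.7 and 99.7 FPKM against 89.2 and 95.1 FPKM. RefSeq lists 6 pseudogenes named after members, and 0 of them stand in the table, so that reads shared with such copies could not be examined.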
